A study of Mus musculus with 12 samples.

Results

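The 34 genes described here are imprinted genes of the mouse, chosen by name. Of these, 15 are known to be expressed mainly from the maternal copy and 19 mainly from the paternal copy. Probes were matched by the gene symbol that the array design gives them, current or older, so that probes named Gtl2 were taken for Meg3. A probe was available for 33 of the 34, and none was named for Rtl1. A gene was tested where the scanner marked its yolk sac signal as well above background on every array of some group. By that filter 29 of the 34 were measured, among 13896 genes in all, 13 of them maternally and 16 paternally expressed. On all 12 arrays 28 of the 29 were well above background, so the filter did not choose members that differed between groups. The members not measured were Ascl2, a trophoblast transcription factor, the zinc-finger gene Zim1, the nucleosome assembly gene Nap1l5 and the Ras exchange factor gene Rasgrf1. Their yolk sac signal was not well above background on any of the 12 arrays.

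Imprinted genes are expressed from the copy inherited from the mother or from the father, according to DNA methylation laid down in the germ line at imprinting control regions. Many of them act on growth: paternally expressed Igf2 encodes a fetal growth factor, maternally expressed Igf2r encodes the receptor that clears it, and Grb10 and Cdkn1c restrain signalling and the cell cycle. They are active in the extraembryonic tissues, where some, such as Tssc4, Cd81, Gatm and Dcn, are known to be imprinted mainly in the placenta. The yolk sac consists of a visceral endoderm epithelium and a mesoderm that forms the first blood cells, vessels and connective tissue. The arrays measured total transcript and could not tell the maternal from the paternal copy.

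The study compared yolk sacs of wild-type embryos with those of embryos homozygous for a single-residue substitution, V1068G, in Baf250a (Arid1a), the ARID subunit of BAF chromatin remodelling complexes. Yolk sacs were taken whole from CD1-background embryos at embryonic day (E) 8.5 and E9.5, with 3 biological replicates in each of the 4 groups: wild type at E8.5, mutant at E8.5, wild type at E9.5 and mutant at E9.5. Each yolk sac RNA was labelled with Cy5 and hybridised on a 2-colour whole-genome array beside a common Cy3 reference, RNA of whole neonatal wild-type mice of mixed 129Sv and C57BL/6 background. The dyes were not swapped. A substitution leaves the transcript in place, so the Arid1a signal does not check the genotype. All values below are log2 ratios of yolk sac over reference, or differences between such ratios. A ratio is particular to its probe and cannot be set against the ratio of another gene as an amount.

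Between 47.4% and 50.7% of the 41174 transcript probes were well above background in the yolk sac channel of each array, and no probe of an imprinted gene was saturated. All 7 of the visceral endoderm genes looked up were measured, and the embryonic globin gene Hbb-y of yolk sac erythroid cells was 5.70 to 7.38 above the reference. Some arrays stood apart. The trophoblast gene Prl4a1 was high on 3 arrays, all of replicate number 3: the mutant array of E8.5 (5.70), the wild-type array of E9.5 (4.31) and the mutant array of E9.5 (3.74). It lay between 0.26 and 1.53 on the other arrays. Of the 9 trophoblast genes 4 were measured, and their mean, each gene centred on its 12 arrays, was 1.1 to 1.64 on those 3 arrays and -0.70 to -0.22 on the others. The 4 genes did not move alike. In the same order of arrays, Hand1 was at 1.18, 0.98 and 0.83, beside 0.59 to 1.13 on the others. Prl3b1 was at 0.21, 0.565 and 1.75, beside 0.07 to 0.24. The heart gene Myl7 was at 0.01 and the neural gene Hes5 at 0.06 in wild-type E8.5 replicate 2, against at most -1.47 and -1.41 elsewhere. The female-specific RNA Xist was low on 3 arrays, at -4.01 and -4.17 on mutant arrays 2 and 3 of E8.5 and at -4.02 on wild-type array 2 of E9.5, with all others between -1.98 and -0.52. Same-numbered arrays shared a slide, and each group had a fixed position on the slide, so that effects of position and of group cannot be told apart.

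The plot of group means against the reference shows how the 29 members were spread. Phlda2, a maternally expressed gene that limits placental growth, lay far above the reference, with group means from 4.86 in wild type at E8.5 to 5.07 in the mutant at E9.5. Slc22a18, its neighbour in the Kcnq1 domain, had means from 1.67 to 2.36, and Peg10, a retrotransposon-derived gene needed for the placenta, from 1.38 to 1.74. Dcn, which encodes the extracellular matrix proteoglycan decorin, lay far below the reference, from -4.27 to -3.26. Meg3, a non-coding RNA of the Dlk1 domain, lay between -2.12 and -2.07, and Plagl1, a zinc-finger transcription factor known to regulate other imprinted genes, between -2.39 and -1.11. The Peg10 ratio is loosely set, because its reference signal was not well above background on any of the 12 arrays.

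**Figure D1:**
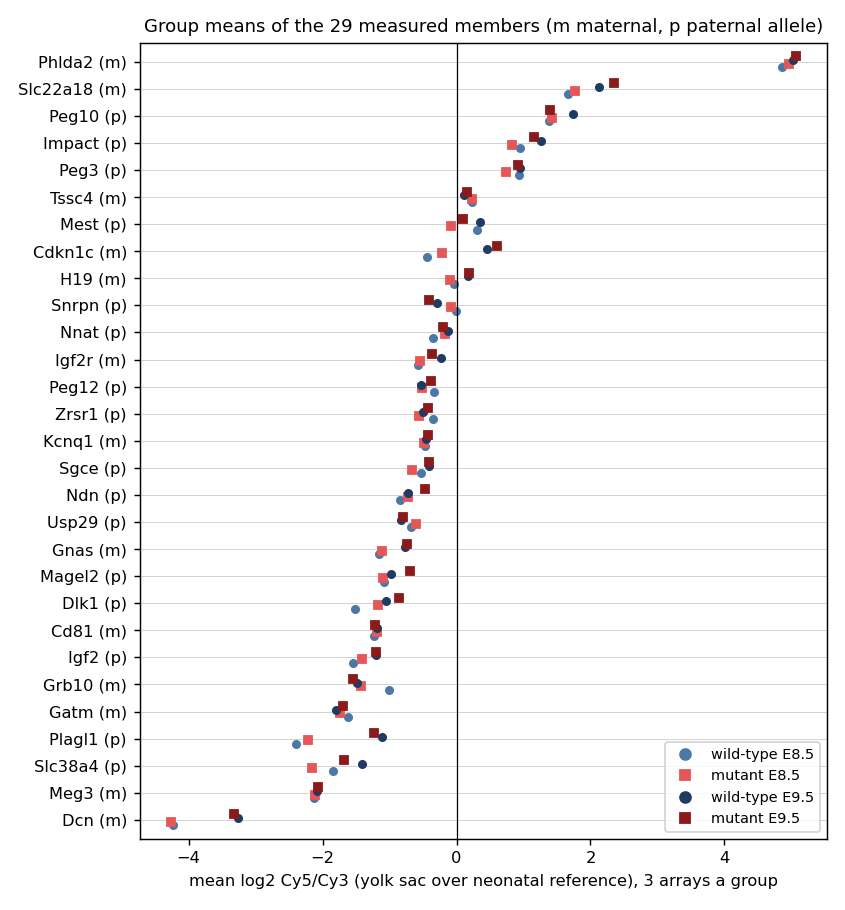
Group mean log2 ratio of yolk sac over the neonatal reference (x axis) for the 29 measured imprinted genes (y axis), ordered by their mean. Labels mark maternally (m) and paternally (p) expressed genes, with 1 symbol for each of the 4 groups, n = 3 arrays each. Phlda2 lies far to the right at 4.86 to 5.07 and Dcn far to the left at -4.27 to -3.26, and the 4 groups of most genes lie close together.

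Between E8.5 and E9.5 many imprinted genes rose. In wild-type yolk sacs 14 of the 29 passed the test (limma's moderated test, Benjamini-Hochberg adjusted p below 0.05 over all 13896 genes), 12 of them higher and 2 lower at E9.5, where 23.8% of all genes tested passed, 12.8% higher and 11.0% lower. In mutant yolk sacs 12 passed, 11 higher and 1 lower, against 21.6% of all genes, 11.0% higher and 10.6% lower. The median stage difference of the 29 members was 0.12 in wild type and 0.18 in mutant, beside -0.01 over all genes in both. Among maternally expressed genes 5 rose and 1 fell of 13 in wild type, and 5 rose and none fell in the mutant, while among paternally expressed genes 7 rose and 1 fell of 16, and 6 rose and 1 fell. Of the members called, 9 passed in both genotypes, which is 64.3% of those called in wild type and 75% of those called in the mutant. The 2 stage comparisons share no array, but they share the slides and, for each gene, the estimate of the spread, so they are not independent. The same overlap over all genes was not counted. The stages did not overlap for 17 of 29 members in wild type and 17 of 29 in the mutant, beside 37.5% and 38.5% of all genes.

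By the brightest probe of each gene, Plagl1 had the largest stage difference of the members in both genotypes. Its log2 ratio was -2.29, -2.45 and -2.43 in wild type at E8.5 and -1.02, -1.26 and -1.05 at E9.5. In the mutant it was -2.14, -2.14 and -2.37 at E8.5 and -1.04, -1.48 and -1.19 at E9.5. All 6 arrays of the later stage lay above all 6 of the earlier stage. The difference was 1.28 ± 0.10 (SE, n = 3 against 3; 2.43-fold, adjusted p = 1.9e-06) in wild type and 0.98 ± 0.10 (1.97-fold, adjusted p = 1.98e-05) in the mutant. A second, dimmer Plagl1 probe gave 0.41 and 0.33, and the mean of both probes gave 0.84 in wild type and 0.65 in the mutant, below the differences of Dcn given next.

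Dcn rose by about as much. It was at -4.21, -4.08 and -4.40 in wild type at E8.5 and at -3.31, -3.15 and -3.33 at E9.5, and in the mutant at -4.25 and -4.28 at E8.5, where the value of replicate 2 was missing, and at -3.22, -3.38 and -3.38 at E9.5. The stages did not overlap in either genotype. The differences were 0.97 ± 0.08 (adjusted p = 4.91e-06) and 0.94 ± 0.09 (adjusted p = 1.44e-05). Dcn is a gene of connective tissue cells. Of the 4 mesenchymal genes looked up, the collagen genes Col1a1 and Col3a1 rose by 1.87 and 1.35 in wild type and by 1.12 and 0.73 in the mutant. The growth factor receptor gene Pdgfra differed by -0.21 (adjusted p = 0.0865) in wild type and was lower, by -0.28 (adjusted p = 0.0274), in the mutant, and Twist1 differed by 0.06 and 0.24 without a call. Dcn is also a gene of the maternal decidua. Of the other decidua genes measured, Igfbp1 rose by 1.00 in wild type and 0.82 in the mutant. Prl8a2 differed by -0.88 and -0.32 without a call. The shares of mesenchymal and decidual cells were not measured. In whole yolk sacs a change in the number of cells of a type and a change in RNA per cell cannot be told apart.

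Cdkn1c, which encodes the cyclin-dependent kinase inhibitor p57, and the transporter gene Slc22a18 rose as well. Cdkn1c was at -0.52, -0.26 and -0.53 in wild type at E8.5 and at 0.27, 0.53 and 0.55 at E9.5, and in the mutant at -0.46, -0.18 and -0.01, then at 0.56, 0.54 and 0.69. Its ratio was below 0 in all 6 arrays of E8.5 and above 0 in all 6 of E9.5. The differences were 0.88 ± 0.11 (adjusted p = 6.79e-05) and 0.82 ± 0.11 (adjusted p = 0.000141). Slc22a18 was at 1.82, 1.53 and 1.65 in wild type at E8.5 and at 2.16, 2.09 and 2.14 at E9.5, and in the mutant at 1.89, 1.74 and 1.68, then at 2.20, 2.38 and 2.49. It rose by 0.46 ± 0.09 (adjusted p = 0.00136) and 0.59 ± 0.09 (adjusted p = 0.000249), and a second probe gave 0.21 and 0.28.

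Their neighbours in the Kcnq1 domain did not pass. Of the 7 members of that domain, 6 were measured, and Cdkn1c and Slc22a18 were the 2 called in each genotype. Phlda2 was at 4.84, 4.93 and 4.82 in wild type at E8.5 and at 5.13, 4.98 and 4.96 at E9.5, and in the mutant at 4.86, 5.05 and 5.0, then at 4.90, 5.08 and 5.24. It differed by 0.16 (adjusted p = 0.176) in wild type and by 0.10 (adjusted p = 0.422) in the mutant. The potassium channel gene Kcnq1 had group means from -0.49 to -0.42, the tetraspanin gene Cd81 from -1.24 to -1.19, and Tssc4 from 0.11 to 0.23. The members outside that domain that were called in no comparison and are not described elsewhere were the creatine synthesis gene Gatm, with group means from -1.80 to -1.62, the zinc-finger gene Peg3, from 0.74 to 0.95, and the neighbouring ubiquitin protease gene Usp29, from -0.83 to -0.60.

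**Figure D2:**
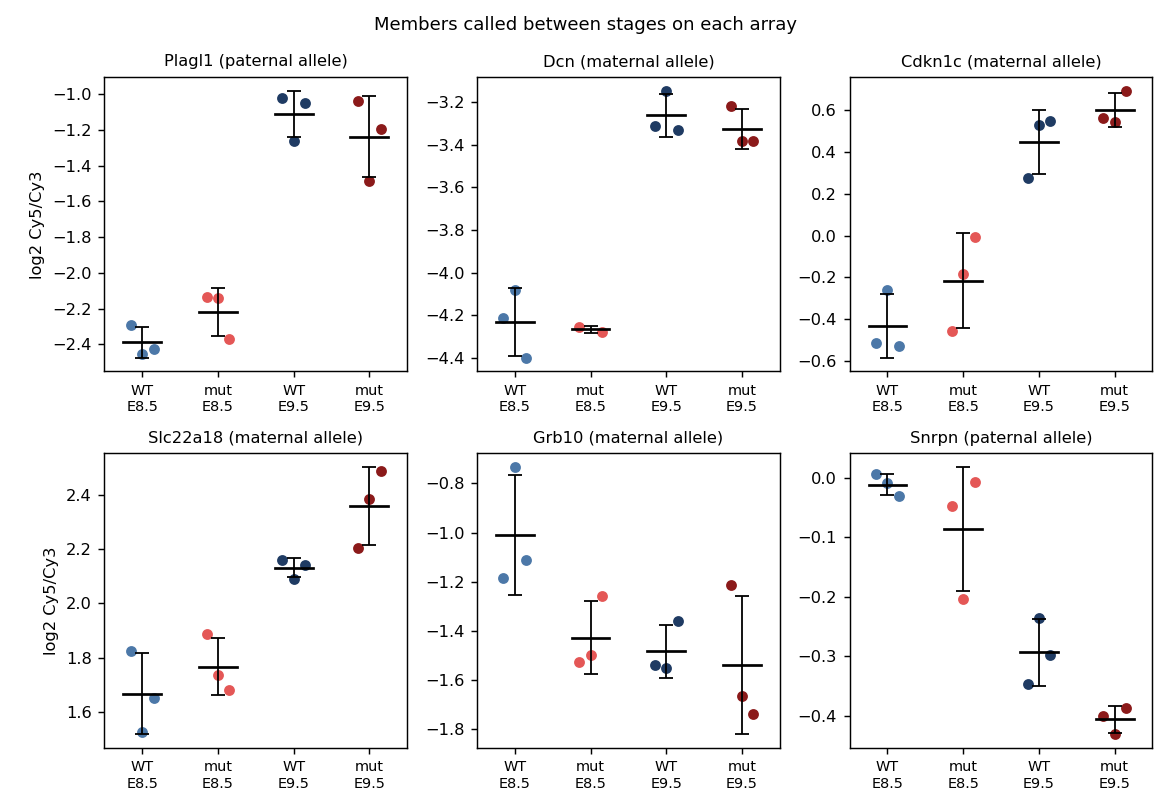
Log2 ratio of yolk sac over reference (y axis) on each array of Plagl1, Dcn, Cdkn1c, Slc22a18, Grb10 and Snrpn in the 4 groups (x axis), where points are arrays and bars are group means ± SD, n = 3 except Dcn in the mutant at E8.5, n = 2. The E9.5 arrays of Plagl1, Dcn, Cdkn1c and Slc22a18 all lie above their E8.5 arrays, those of Snrpn all lie below, and Grb10 has its highest mean, -1.01, in wild type at E8.5.

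The ligand Igf2, its receptor Igf2r and the non-coding RNA H19, which shares an enhancer and control region with Igf2, had smaller stage differences. Igf2 was at -1.52, -1.45 and -1.68 in wild type at E8.5 and at -1.27, -1.06 and -1.26 at E9.5, without overlap, and rose by 0.35 ± 0.07 (adjusted p = 0.00352). In the mutant it was at -1.46, -1.34 and -1.45, then at -1.23, -1.26 and -1.13, a difference of 0.21 that missed the threshold (adjusted p = 0.0574) and passed it when slide was added to the model as a block (adjusted p = 0.0377). It was called in 9 of 21 alternative settings in all, with adjusted p from 0.0083 to 0.368. The wild-type Igf2 difference was larger on Agilent's processed signals (0.55) and in the authors' deposited table (0.57). A second Igf2 probe gave 0.46 in wild type and 0.35 in the mutant. H19 was at -0.16, 0.09 and -0.02 in wild type at E8.5 and at 0.12, 0.26 and 0.12 at E9.5. That difference of 0.20 was not called (adjusted p = 0.0826). It was called with the slide block (adjusted p = 0.0119) and in 6 of 21 alternative settings in all, with adjusted p from 0.0119 to 0.291, among them the fit without wild-type E8.5 replicate 2 (0.26, adjusted p = 0.0356). In the mutant H19 rose by 0.28 ± 0.08 (adjusted p = 0.0211), from -0.20, 0.04 and -0.12 to 0.09, 0.24 and 0.21. The mutant call was lost without E8.5 replicate 1 or 3 or E9.5 replicate 2 or 3 (0.22 to 0.26, adjusted p from 0.0703 to 0.0919). A second H19 probe gave 0.26 in wild type and 0.38 in the mutant. The receptor gene Igf2r was at -0.57, -0.65 and -0.51 in wild type at E8.5 and at -0.42, -0.08 and -0.19 at E9.5, without overlap. It rose by 0.34 ± 0.09 (adjusted p = 0.0151), or 0.27 without E9.5 replicate 2 (adjusted p = 0.0679). In the mutant it was at -0.57, -0.53 and -0.54, then at -0.16, -0.41 and -0.52, a difference of 0.18 (adjusted p = 0.194).

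Grb10, which encodes an adaptor that inhibits insulin and IGF receptor signalling, was the only maternally expressed member called lower at E9.5, and it was called in wild type. It was at -1.19, -0.73 and -1.11 in wild type at E8.5 and at -1.54, -1.55 and -1.36 at E9.5, and in the mutant at -1.53, -1.50 and -1.26, then at -1.22, -1.66 and -1.74. The wild-type stages did not overlap and the mutant stages did. The differences were -0.47 ± 0.14 (adjusted p = 0.0202) in wild type and -0.11 (adjusted p = 0.621) in the mutant, and their difference was not called, as no gene was. Without E8.5 replicate 2, the array high in Myl7 and Hes5 and the highest in Grb10, the wild-type difference was -0.33 (adjusted p = 0.0811), and without E9.5 replicate 1 or 2 it was -0.45 (adjusted p = 0.0695) or -0.44 (adjusted p = 0.0622). The other probes of Grb10 gave -0.21 and -0.12.

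Dlk1, which encodes a membrane protein related to the Notch ligands, rose in both genotypes. It was at -1.42, -1.55 and -1.58 in wild type at E8.5 and at -1.12, -1.01 and -1.05 at E9.5, a difference of 0.46 ± 0.08 (adjusted p = 0.000717). In the mutant it was at -1.09, -1.18 and -1.27, then at -0.84, -1.01 and -0.71, a difference of 0.32 ± 0.08 (adjusted p = 0.0077). Within each genotype every E9.5 array lay above every E8.5 array, and a second Dlk1 probe gave 0.57 and 0.51. Meg3, transcribed from the maternal copy of the same domain, differed by 0.04 in each genotype (adjusted p = 0.775 and 0.823). The mutant Dlk1 difference was 0.21 (adjusted p = 0.166) without the 3 arrays high in Prl4a1 and 0.61 (adjusted p = 0.0534) with median centring.

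Gnas, which encodes the stimulatory G protein alpha subunit, rose in both genotypes. It was at -1.33, -1.0 and -1.16 in wild type at E8.5 and at -0.76, -0.89 and -0.67 at E9.5, and in the mutant at -1.17, -1.07 and -1.09, then at -0.69, -0.87 and -0.63. The stages did not overlap in either genotype. The differences were 0.39 ± 0.09 (adjusted p = 0.00508) and 0.37 ± 0.09 (adjusted p = 0.00696). Of its other probes, one gave 0.32 and 0.30. The other, with a median net yolk sac signal of 22.1 beside 610.8 for the brightest probe, gave 0.03 and 0.09. The mean of the Gnas probes in wild type was 0.25 (adjusted p = 0.00801).

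Impact, a paternally expressed regulator of translation, and the amino acid transporter gene Slc38a4 also rose in both genotypes. Impact was at 1.00, 0.92 and 0.90 in wild type at E8.5 and at 1.33, 1.34 and 1.1 at E9.5, and in the mutant at 0.92, 0.76 and 0.82, then at 1.02, 1.31 and 1.14. It rose by 0.31 ± 0.08 (adjusted p = 0.0113) and 0.32 ± 0.08 (adjusted p = 0.0106), without overlap of the stages. Without E9.5 replicate 1 the wild-type difference was 0.28 (adjusted p = 0.0533), and without E9.5 replicate 2 the mutant difference was 0.25 (adjusted p = 0.0558). Slc38a4 was at -1.90, -1.63 and -2.03 in wild type at E8.5 and at -1.53, -1.42 and -1.29 at E9.5, and in the mutant at -2.25, -2.23 and -1.99, then at -1.39, -1.80 and -1.84. Its stages did not overlap, and it rose by 0.44 ± 0.12 (adjusted p = 0.0173) and 0.48 ± 0.12 (adjusted p = 0.0114). The wild-type call was lost without E8.5 replicate 1 or 3 or E9.5 replicate 3 (0.35 to 0.42, adjusted p from 0.0511 to 0.0771). A dimmer Slc38a4 probe gave 0.04 and 0.00, and the mean of the probes, 0.24 in each genotype, was not called (adjusted p = 0.0759 and 0.0828).

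Of the other paternally expressed genes, Peg10 and Nnat, a proteolipid gene, were called in wild type. Peg10 was at 1.34, 1.39 and 1.41 at E8.5 and at 1.55, 1.82 and 1.86 at E9.5, a difference of 0.36 ± 0.08 (adjusted p = 0.00565) that was 0.24 on Agilent's processed signals (adjusted p = 0.747). Nnat was at -0.31, -0.32 and -0.44 and then at -0.13, -0.12 and -0.14, a difference of 0.23 ± 0.06 (adjusted p = 0.0183). Neither gene's stages overlapped, and the Nnat call was lost without E8.5 replicate 3 (0.19, adjusted p = 0.0798) or E9.5 replicate 1 (0.23, adjusted p = 0.0538).

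Sgce, a sarcoglycan gene, and Magel2, a regulator of ubiquitin ligases, were called in the mutant. Sgce was at -0.67, -0.67 and -0.65 at E8.5 and at -0.37, -0.35 and -0.50 at E9.5, a difference of 0.26 ± 0.07 (adjusted p = 0.0225) without overlap. In wild type it was at -0.53, -0.62 and -0.43, then at -0.35, -0.58 and -0.29, and the stages overlapped. A second Sgce probe gave 0.37 in the mutant and 0.20 in wild type. Magel2 was at -0.99, -1.23 and -1.07 in the mutant at E8.5 and at -0.43, -0.85 and -0.81 at E9.5, a difference of 0.40 ± 0.12 (adjusted p = 0.0314), and in wild type at -1.23, -0.76 and -1.25, then at -1.0, -0.94 and -0.98. The wild-type value of -0.76 came from the array high in Myl7 and Hes5. The stage differences of the genotypes were not called apart for Sgce (limma interaction, adjusted p = 0.95) or Magel2 (adjusted p = 0.923). The Sgce call was lost without each of the mutant E8.5 replicates and mutant E9.5 replicates 1 and 2 (0.23 to 0.26, adjusted p from 0.0569 to 0.0852). The Magel2 call was lost without mutant E8.5 replicate 2 or 3 or E9.5 replicate 1 (0.27 to 0.42, adjusted p from 0.0686 to 0.137), and on the processed signals, where the difference was 1.09 (adjusted p = 0.0796).

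Snrpn, which encodes a splicing protein, was the only paternally expressed member that fell. It was at 0.01, -0.01 and -0.03 in wild type at E8.5 and at -0.35, -0.24 and -0.30 at E9.5, and in the mutant at -0.05, -0.20 and -0.01, then at -0.40, -0.43 and -0.39. No E9.5 array reached the level of any E8.5 array. The differences were -0.28 ± 0.06 (adjusted p = 0.00304) and -0.32 ± 0.06 (adjusted p = 0.00138), and a second probe gave -0.24 and -0.27. With plain median centring in place of loess they were -0.19 (adjusted p = 0.22) and -0.20 (adjusted p = 0.162), and on Agilent's processed signals -0.69 (adjusted p = 0.00092) and -1.08 (adjusted p = 9.25e-05). The other 3 members of its domain, Ndn, Magel2 and Peg12, included no gene that fell in either genotype. Ndn had group means of -0.84 and -0.72 at E8.5 in wild type and mutant and -0.72 and -0.47 at E9.5. Peg12 was at 0.26 in wild-type E8.5 replicate 2, the array high in Myl7 and Hes5, and between -0.65 and -0.30 on the other arrays.

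Some marker genes of the cell types of the yolk sac also differed between the stages. Of the visceral endoderm list, 3 of 7 genes rose and none fell in each genotype, with Afp, the fetal serum protein gene, 1.71 higher in wild type and 1.53 higher in the mutant. The mean of that list, each gene centred on its 12 arrays, ran from -0.42 to -0.14 at E8.5 and from 0.04 to 0.31 at E9.5. Of the 4 mesenchymal genes, 2 rose and none fell in wild type and 2 rose and 1, Pdgfra, fell in the mutant. Their mean ran from -0.59 to -0.01 at E8.5 and from 0.20 to 0.45 at E9.5. Of the 5 primitive erythroid genes, 1 rose and 1 fell in wild type, and 0 rose and 1 fell in the mutant. These lists are short, and over all genes 23.8% were called with stage in wild type and 21.6% in the mutant. Hbb-y rose by 0.98 in wild type, and the transcription factor gene Klf1 differed by -0.54 in wild type and -0.83 in the mutant. The part of these cell types in the stage differences of the imprinted genes was not tested. Of the members called in wild type 7 kept their call under every alternative setting run (Cdkn1c, Dcn, Dlk1, Gnas, Igf2, Plagl1 and Slc22a18), and of those called in the mutant 4 did (Cdkn1c, Dcn, Plagl1 and Slc22a18). Median centring turned the split over all genes from 1783 higher and 1525 lower to 1381 and 77 in wild type, and from 1522 and 1476 to 1678 and 78 in the mutant. It moved the median of all genes by 0.11 and 0.14, and called 11 and 10 members higher and none lower. Under it the stage differences of Dlk1 (0.69), Gnas (0.60), Impact (0.50) and Igf2 (0.58) in wild type and of Gnas (0.63), Impact (0.56) and H19 (0.56) in the mutant were over 1.5 times as large and called. Those of Igf2r (0.55, adjusted p = 0.0736) and Nnat (0.40, adjusted p = 0.0724) in wild type and Sgce (0.51, adjusted p = 0.0792) in the mutant were larger and not called, and Grb10 in wild type was at -0.31 (adjusted p = 0.372). Without the 3 arrays high in Prl4a1, 12 members were called in wild type and 6 in the mutant. Over all genes that setting called 1415 higher and 1088 lower in wild type and 708 and 639 in the mutant.

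**Figure D3:**
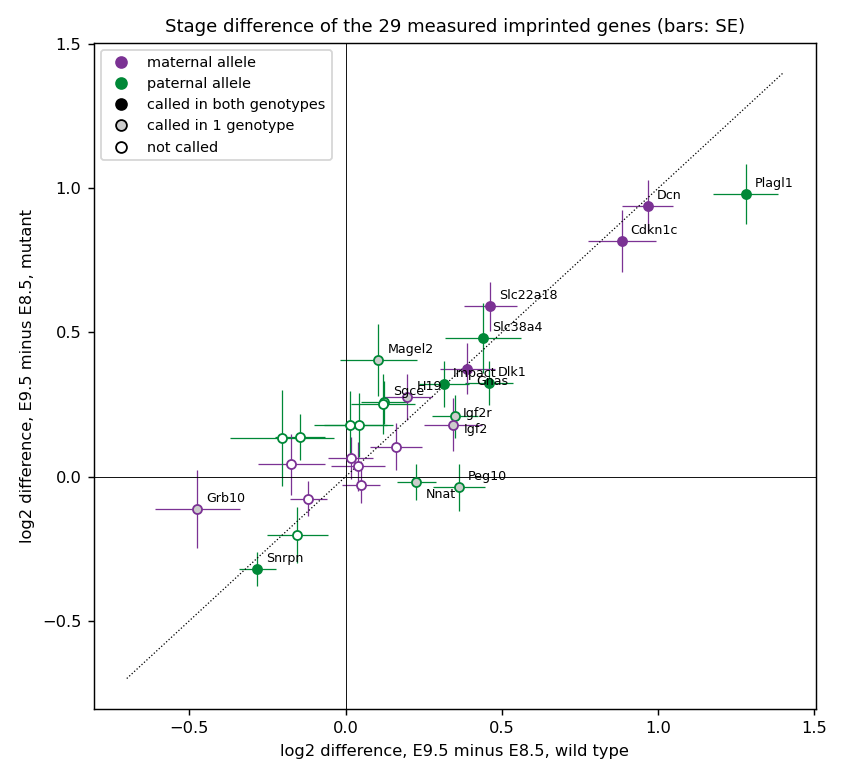
Stage difference, E9.5 minus E8.5 in log2 units, of the 29 members in wild type (x axis) and in the mutant (y axis), with bars for the SE of each fit, where filled points were called in both genotypes, grey points in 1 and open points in none. The 9 filled points include Plagl1, Dcn and Cdkn1c at the upper right, between 0.82 and 1.28, and Snrpn at the lower left.

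Promoter sequences are shown for Plagl1, Slc22a18 and Dlk1, which rose in both genotypes and have a single start in the table used, and for Meg3, the maternally expressed neighbour of Dlk1 that was not called. Each is a window of 300 bases, from 250 before to 50 after a RefSeq transcript start in GRCm38.p6, 5′ to 3′ on the plus strand, with CG dinucleotides, the sites that imprinting marks can methylate, in capitals. The windows are chr10:13090582-13090881 for Plagl1, chr7:143473539-143473838 for Slc22a18, chr12:109452573-109452872 for Dlk1 and chr12:109540746-109541045 for Meg3, the first of 2 starts.
Plagl1: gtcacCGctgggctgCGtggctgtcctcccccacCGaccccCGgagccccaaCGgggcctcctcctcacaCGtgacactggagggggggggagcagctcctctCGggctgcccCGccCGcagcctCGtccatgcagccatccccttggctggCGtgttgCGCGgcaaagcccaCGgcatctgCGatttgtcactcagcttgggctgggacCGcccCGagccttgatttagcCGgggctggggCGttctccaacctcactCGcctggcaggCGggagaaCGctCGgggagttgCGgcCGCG
Slc22a18: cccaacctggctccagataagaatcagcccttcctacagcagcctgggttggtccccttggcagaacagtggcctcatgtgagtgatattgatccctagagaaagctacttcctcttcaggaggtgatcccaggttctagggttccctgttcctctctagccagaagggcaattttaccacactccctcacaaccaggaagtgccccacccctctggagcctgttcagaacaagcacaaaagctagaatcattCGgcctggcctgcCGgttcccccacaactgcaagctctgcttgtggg
Dlk1: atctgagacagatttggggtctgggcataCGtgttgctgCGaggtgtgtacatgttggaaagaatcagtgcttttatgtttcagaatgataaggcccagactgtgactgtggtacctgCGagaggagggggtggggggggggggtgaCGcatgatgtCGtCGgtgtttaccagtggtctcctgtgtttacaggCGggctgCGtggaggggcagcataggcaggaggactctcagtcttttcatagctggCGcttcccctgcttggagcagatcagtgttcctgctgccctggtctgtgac
Meg3: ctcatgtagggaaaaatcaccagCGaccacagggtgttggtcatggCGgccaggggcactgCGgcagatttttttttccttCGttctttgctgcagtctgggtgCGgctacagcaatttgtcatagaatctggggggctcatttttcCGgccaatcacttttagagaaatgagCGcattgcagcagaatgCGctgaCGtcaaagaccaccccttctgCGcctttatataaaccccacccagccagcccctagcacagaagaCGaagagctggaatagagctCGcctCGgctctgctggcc
The Plagl1 window held 26 CG dinucleotides, and 84.5% of the 32851 windows in the table held as many or fewer. The Slc22a18 window held 2 (23.3%), the Dlk1 window 9 (56.5%) and the Meg3 window 13 (63.7%). Windows were found for 26 of the 34 members, 41 windows in all, with a median of 14 against 7 over all windows, and the members' counts ran from 1 to 45. The palindrome GGGGCCCC, a motif of the Plagl1 type that reads the same on both strands, was in 3 of the members' windows (7.32%), those of Peg3, Usp29 and Rasgrf1, the first 2 of which overlap, against 1.08% of all windows. Methylation and Plagl1 binding were not measured.

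Between mutant and wild-type yolk sacs, 1 of the 29 members was called at each stage and 2 were called averaged over stages. At E8.5 the only member called was Dlk1, which was higher in the mutant, where 1.44% of all genes were called, 0.712% higher and 0.727% lower. At E9.5 the only member called was Peg10, which was lower in the mutant, where 1.99% of all genes were called, 0.914% higher and 1.08% lower. Averaged over the stages, Dlk1 was higher and Mest, which encodes a protein of the alpha/beta hydrolase fold, lower, where 4.68% of all genes were called, 2.35% higher and 2.33% lower. The groups did not overlap for 6 members at E8.5 and 6 at E9.5, beside 17.9% and 17.3% of all genes. All 3 called are paternally expressed, and no maternally expressed member was called in any of these comparisons. The median difference was 0.01 for the 13 maternally expressed genes and -0.05 for the 16 paternally expressed genes at E8.5, and 0.04 and -0.02 at E9.5, beside 0.00 over all genes at both stages. The median size of the difference, without its sign, was 0.06 for maternally and 0.15 for paternally expressed genes at E8.5 and 0.05 and 0.12 at E9.5, beside 0.06 over all genes. On Agilent's processed signals and in the authors' deposited table, Dlk1, Mest and Peg10 were not called, or in the deposited table not tested (Peg10), and Snrpn was called lower in the mutant at E9.5 (-0.57, adjusted p = 0.0178 and 0.0154) and averaged over stages (-0.37, adjusted p = 0.0121 and 0.0108). From the loess values Snrpn differed by -0.11 (adjusted p = 0.488) and -0.09 (adjusted p = 0.26). Without the 3 arrays high in Prl4a1 no member was called at either stage, where 1 was at each, and 1, Dlk1, was averaged over stages. Calls over all genes fell as well. At E8.5 they went from 99 higher and 101 lower to 40 and 46, and at E9.5 from 127 and 150 to 45 and 79.

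**Figure D4:**
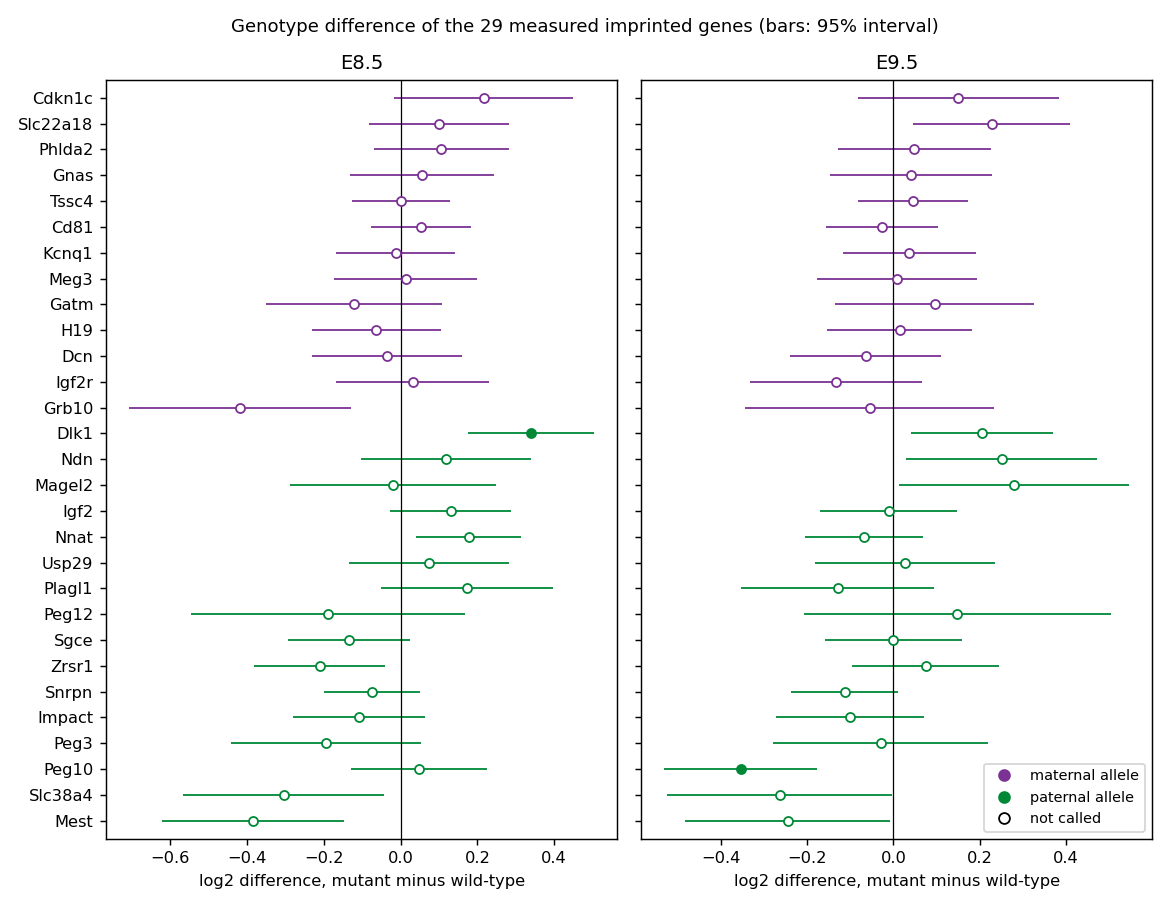
Mutant minus wild-type difference in log2 units (x axis) of the 29 members (y axis) at E8.5 and E9.5, with 95% intervals from the limma fit and filled points where the adjusted p is below 0.05. The filled points are Dlk1 at E8.5, 0.34, and Peg10 at E9.5, -0.35, and most other intervals span 0.

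Dlk1 at E8.5 was at -1.42, -1.55 and -1.58 in wild type and at -1.09, -1.18 and -1.27 in the mutant, so the groups did not overlap. The difference was 0.34 ± 0.08 (1.27-fold, 95% interval 0.17 to 0.50, adjusted p = 0.0437), and on the slides it was 0.34, 0.37 and 0.31. At E9.5 wild type was at -1.12, -1.01 and -1.05 and the mutant at -0.84, -1.01 and -0.71, a difference of 0.20 ± 0.08 (adjusted p = 0.261). Averaged over stages the difference was 0.27 ± 0.05 (adjusted p = 0.00886), and a second Dlk1 probe gave 0.28 at E8.5 and 0.26 averaged. The E8.5 call lay close to the threshold and was lost in 18 of 21 alternative settings, with adjusted p from 0.0249 to 0.726. Left-out arrays that ended it were each of the wild-type arrays, each of the mutant E8.5 arrays and mutant E9.5 replicate 1 (0.29 to 0.39, adjusted p from 0.0514 to 0.158). The averaged call was kept without each array in turn and lost in 3 of 20 settings, on processed signals (0.29, adjusted p = 0.0701), in the authors' deposited table (0.29, adjusted p = 0.0658) and with median centring (0.16, adjusted p = 0.589). With median centring the E8.5 difference was 0.21 (adjusted p = 0.726).

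Mesenchymal genes moved in the same comparison as Dlk1. At E8.5 Col1a1 was 0.77, Col3a1 0.61 and Pdgfra 0.37 higher in the mutant (adjusted p = 0.00227, 0.00121 and 0.0467), and the fourth gene of the list, Twist1, differed by -0.22. The list mean ran from -0.59 to -0.36 in wild type and from -0.21 to -0.01 in the mutant at E8.5, and from 0.20 to 0.38 and from 0.26 to 0.45 at E9.5, where no gene of the list was called. The part of these cells in the Dlk1 difference was not tested. Dcn, which also belongs to connective tissue, had group means of -4.23 and -4.27 at E8.5.

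Meg3 differed by 0.01 at E8.5 (adjusted p = 0.978) and by 0.01 at E9.5 (adjusted p = 0.988). Its ratio was -2.21, -2.05 and -2.12 in wild type and -2.21, -2.02 and -2.09 in the mutant at E8.5, and -2.24, -1.89 and -2.11 against -2.19, -1.97 and -2.06 at E9.5. The groups overlapped at both stages. The other 3 Meg3 probes gave -0.04, -0.02 and -0.08 at E8.5.

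Peg10 at E9.5 was at 1.55, 1.82 and 1.86 in wild type and at 1.43, 1.30 and 1.44 in the mutant, without overlap. The difference was -0.35 ± 0.08 (1.28-fold lower in the mutant, adjusted p = 0.0412), with -0.12, -0.52 and -0.41 on the slides. At E8.5 wild type was at 1.34, 1.39 and 1.41 and the mutant at 1.41, 1.31 and 1.56, and the groups overlapped. The stage dependence, an interaction of -0.40 ± 0.12, was not called (limma, adjusted p = 0.52). Peg10 had a single dim probe, and its E9.5 call was lost in 14 of 20 alternative settings, with adjusted p from 0.0109 to 0.867. Left-out arrays that ended it were mutant E8.5 replicate 1, replicates 1 and 3 of wild type at E8.5, replicates 2 and 3 of wild type at E9.5 and each of the mutant E9.5 arrays (-0.38 to -0.30, adjusted p from 0.0557 to 0.187). Sgce, which shares the Peg10 promoter region on the paternal copy, had means of -0.41 in both genotypes at E9.5.

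Mest was lower in the mutant averaged over stages, with a difference of -0.31 ± 0.08 (adjusted p = 0.0326). It was at 0.18, 0.59 and 0.14 in wild type and at 0.00, 0.01 and -0.25 in the mutant at E8.5, and at 0.22, 0.31 and 0.51 against 0.10, 0.05 and 0.15 at E9.5. The genotypes did not overlap at either stage, and neither stage passed alone, with -0.38 (adjusted p = 0.118) and -0.24 (adjusted p = 0.394). The highest value, 0.59, came from the array high in Myl7 and Hes5, and without that array the averaged difference was -0.24 (adjusted p = 0.0337). Without that array Ndn, a growth-regulating gene of the Snrpn domain, was also called, 0.24 ± 0.06 higher in the mutant (adjusted p = 0.0468). The Mest call was lost in 12 of 20 alternative settings, with adjusted p from 0.0244 to 0.213. Left-out arrays that ended it were replicate 3 of the mutant at E8.5, replicates 2 and 3 of wild type at E9.5 and each of the mutant E9.5 arrays (-0.33 to -0.27, adjusted p from 0.0542 to 0.0872).

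**Figure D5:**
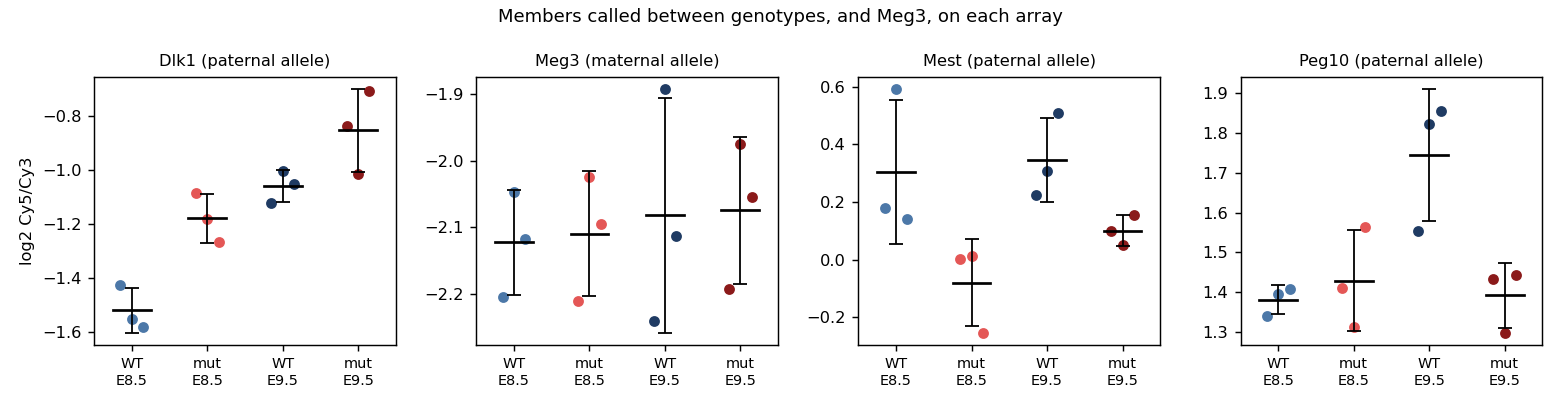
Log2 ratio of yolk sac over reference (y axis) on each array of Dlk1, Meg3, Mest and Peg10 in the 4 groups (x axis), where points are arrays and bars are group means ± SD, n = 3. The mutant arrays of Dlk1 lie above the wild-type arrays at E8.5, those of Mest lie below at both stages, those of Peg10 lie below at E9.5, and those of Meg3 overlap.

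The growth genes gave no genotype call. Igf2 differed by 0.13 at E8.5 (adjusted p = 0.526) and by -0.01 at E9.5 (adjusted p = 0.982), H19 by -0.06 (adjusted p = 0.821) and 0.01 (adjusted p = 0.977), and Igf2r by 0.03 (adjusted p = 0.937) and -0.13 (adjusted p = 0.66). Cdkn1c differed by 0.22 (adjusted p = 0.445) and 0.15 (adjusted p = 0.675), Phlda2 by 0.11 (adjusted p = 0.67) and 0.05 (adjusted p = 0.903), and Plagl1 by 0.17 (adjusted p = 0.553) and -0.13 (adjusted p = 0.728). Grb10 at E8.5 had the largest difference among the maternally expressed genes, -0.42 ± 0.14 (adjusted p = 0.179), with the mutant arrays at -1.53, -1.50 and -1.26, all below the wild-type arrays at -1.19, -0.73 and -1.11. Slc38a4 differed by -0.30 at E8.5 (adjusted p = 0.305) and by -0.28 averaged over stages (adjusted p = 0.0827). At E9.5 the members next to Peg10 in the order of p-values were Slc22a18, 0.23 ± 0.08 (adjusted p = 0.257), and Dlk1.

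No member had a genotype difference that depended on stage after adjustment, as none of the 13896 genes did (limma, 0% called, while 795 genes, 5.72%, had an unadjusted p below 0.05). At the unadjusted threshold the members were Peg10, Nnat, -0.25 (adjusted p = 0.758), and the splicing factor gene Zrsr1, 0.28 (adjusted p = 0.788). Zrsr1 had group means of -0.35 in wild type and -0.56 in the mutant at E8.5 and of -0.49 and -0.42 at E9.5. Nnat was at -0.31, -0.32 and -0.44 in wild type and -0.17, -0.09 and -0.27 in the mutant at E8.5, and at -0.13, -0.12 and -0.14 against -0.14, -0.30 and -0.15 at E9.5. Plagl1, whose stage difference was 1.28 in wild type and 0.98 in the mutant, had an interaction of -0.30 (adjusted p = 0.859).

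Genes that act on the same pathways were read from 3 further lists. Of 24 other genes of the insulin-like growth factor axis, 22 were measured and none was called between genotypes. Over all genes 1.44% were called at E8.5, 1.99% at E9.5 and 4.68% averaged over stages. With stage 5 rose and 2 fell in wild type and 2 rose and 1 fell in the mutant, or 31.8% and 13.6% of those measured beside 23.8% and 21.6% of all genes, among them the binding protein gene Igfbp1, which rose by 1.00 and 0.82, and the growth factor gene Igf1, with -0.56 and -0.43. The binding protein gene Igfbp4 rose by 0.34 in wild type and differed by 0.23 in the mutant (adjusted p = 0.0918), and Igfals, which encodes a partner of the binding proteins, rose by 0.30 and 0.41. Igfbp1 is also a gene of the maternal decidua. The other decidua gene measured, Prl8a2, differed with stage by -0.88 in wild type and -0.32 in the mutant, without a call. Of 28 genes that set, keep or read imprints, 25 were measured. Dnmt3b, a de novo DNA methyltransferase gene, was 0.46 ± 0.10 higher in the mutant at E8.5 (adjusted p = 0.0343) and 0.35 ± 0.07 higher averaged over stages (adjusted p = 0.00843), and was the only gene of that list called between genotypes. It makes 4.0% of those measured, beside 1.44% of all genes at E8.5 and 4.68% averaged over stages. With stage 2 rose and 5 fell in wild type and 1 rose and 4 fell in the mutant, or 7 and 5 of 25, near the 23.8% and 21.6% of all genes. Dnmt3b differed by -1.03 and -1.24, the Polycomb methyltransferase gene Ezh2 by -0.40 and -0.27, Dnmt3a by 0.45 and 0.22, and Uhrf1, a partner of the maintenance methyltransferase, by -0.38 and -0.33, all called.

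Of 42 other imprinted genes 28 were measured. With stage 7 rose and 2 fell in wild type and 6 rose and 2 fell in the mutant, shares that stand beside 12.8% and 11.0% of all genes higher and 11.0% and 10.6% lower. The cation transporter gene Slc22a2, a neighbour of Igf2r, rose by 1.04 and 0.96, and Asb4, a ubiquitin ligase subunit gene in the Peg10 and Sgce region, by 0.69 and 0.40. Dio3, a thyroid hormone deiodinase gene in the Dlk1 domain, rose by 0.50 in wild type and differed by 0.20 in the mutant (adjusted p = 0.225), and the sterol reductase gene Dhcr7 rose by 0.33 and 0.37. Between genotypes the tetraspanin gene Tspan32 was 0.28 ± 0.06 higher in the mutant at E8.5 (adjusted p = 0.0476), and Ins2, an insulin gene next to Igf2, was 0.31 ± 0.06 higher at E9.5 (adjusted p = 0.0096). Both were also called higher averaged over stages, and no gene of this list was called lower in a genotype comparison. The shares called were 3.6% at E8.5, 3.6% at E9.5 and 7.1% averaged, beside 1.44%, 1.99% and 4.68% of all genes.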

How the data were processed

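The 12 files are scanner output of Agilent Feature Extraction 9.5.1.1, per the file headers. The authors deposited linear red (Cy5) and green (Cy3) spot and background intensities, raw and processed (background-subtracted and dye-normalised). The log10 ratio of the processed signals, red over green, was computed by Feature Extraction before the authors deposited the files, per the file headers. The authors' deposited value table held log2 ratios, 19033 entries; it matched the centred processed log ratios with r of 0.9997 to 0.9999 across probes, so its direction is Cy5 over Cy3. Per the labels' protocols, 500 ng of TRIzol and RNeasy RNA was amplified with a low-input kit. The array design's genome build is not stated in the labels or headers.

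Intensities were corrected with normexp (offset 50; spots over 20 units below their local background set missing), normalised by loess with control spots at weight 0, and averaged over repeated spots (limma 3.58.1, R 4.3.3). The offset draws the ratios of dim probes, and differences between those ratios, towards 0. A gene was the brightest probe that passed the detection filter. lmFit was run on 4 group means, with 8 residual and 6.22 prior degrees of freedom, and p-values were Benjamini-Hochberg adjusted over 13896 genes. Replicates are biological per the labels, which leave unsaid if yolk sacs were pooled, so p-values measure the spread between these samples. Their number limits the precision, with a median SE of 0.07 in log2 units.

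Members and lists were chosen with earlier results of these data known. Named genes were every member called in a comparison, the 3 members with the smallest p in each, the growth and domain genes Igf2, H19, Igf2r, Cdkn1c, Plagl1, Phlda2, Ascl2, Dlk1 and Meg3, the other members by group means, and, of the other lists, genes called between genotypes and the 3 largest called stage changes. Same-numbered arrays shared a slide by grid name and scan time, per the file headers (the barcode field gives replicates 2 and 3 the same slide number), and their deviations correlated with r from -0.007 to 0.42 (16 of 18 pairs over 0.1). The numbers therefore pair the arrays.

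Alternatives were processed signals, the authors' deposited table, median centring, no filter, the mean of a gene's probes, only the compared groups, the slide as a block and leaving out each array. Leaving out the 3 arrays high in Prl4a1 and an Xist covariate were chosen after seeing the data.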

Additional observations from a re-analysis of the deposited data

How the results depend on the processing

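The number of members called was recomputed under 7 settings of the analysis and without each array in turn, and no difference of a described member that was called changed its direction. The 1 member called at E8.5 became 0 on Agilent's processed signals, in the authors' deposited table, with the mean of a gene's probes, with median centring, with no filter on dim probes and with only the arrays of the groups compared. It was also 0 with an Xist covariate and without the 3 arrays high in Prl4a1. The 1 called at E9.5 became 0 with median centring, with no filter, with only the groups compared, with the Xist covariate and without the 3 arrays. It stayed 1 on processed signals and in the deposited table, where the member called was Snrpn and not Peg10. Averaged over stages, the 2 called, Dlk1 and Mest, became 1, Dlk1, with no filter, with the Xist covariate and without the 3 arrays, 1 other member, Snrpn, on processed signals and in the deposited table, and 0 with median centring. With stage in the mutant, the 12 called became 6 with the Xist covariate and 6 without the 3 arrays. Calls over all genes fell as well, from 1522 higher and 1476 lower. They became 757 and 637 with the covariate and 708 and 639 without the 3 arrays. The cause of these changes was not tested. Without each array in turn the counts ran from 0 to 1 at E8.5, 0 to 1 at E9.5, 1 to 3 averaged over stages, 0 to 0 for the interaction, 11 to 14 with stage in wild type and 9 to 14 in the mutant. With the replicate number, which is the slide, as a block, the counts were 1, 1, 2, 0, 15 and 13 in that order. The block added H19 in wild type and Igf2 in the mutant and changed no other call. Over all genes, median centring called 2 higher and 8 lower at E8.5 and 5 and 21 at E9.5. The Xist covariate called 7 and 17, then 60 and 74, and the fit without the 3 arrays 40 and 46, then 45 and 79. In the main fit they were 99 and 101 at E8.5 and 127 and 150 at E9.5. Dim probes limit the ratios: Kcnq1, Peg10, Snrpn, Peg12 and Magel2 had the lowest mean signals among the members.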

Other observations

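Several imprinted genes had more than 1 passing probe, and some of these probes gave different values. Meg3 had 4: with stage in the mutant the brightest probe gave 0.04 and the other 3 gave 0.19, 0.11 and 0.40, and in wild type the other 3 gave 0.19, 0.09 and 0.12. Of the called members that had another passing probe, 4 of 8 in wild type and 5 of 8 in the mutant had another probe with a difference of the same sign and at least 50% of the size. Which transcripts each probe reads was not examined.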
